A study of Oryctolagus cuniculus with 6 samples.

Results

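The circadian clock genes described here were CLOCK, NPAS2, PER1, PER2, PER3, CRY1, CRY2, NR1D1, NR1D2 and DBP, chosen by name as core clock and clock output transcription factors. All 10 were found among the 28788 genes of the deposited tables, 9 by their symbol and DBP by its RefSeq gene identifier, LOC127486976. The tissue was retina from rabbits. The normal group had 3 samples. The PVR group had 3 samples from the model of proliferative vitreoretinopathy (PVR), in which scar-like membranes contract on the retina. To make the model, the sclera of adult rabbits was punctured under ketamine and pentobarbital, some vitreous was aspirated, and platelet-rich plasma was injected in its place. Euthanasia was by an overdose of pentobarbital. The strain and sex of the rabbits, the interval from injection to collection, the time of day, the lighting, and whether normal rabbits were also anaesthetised before euthanasia are not given in the sources used here. The labels do not say whether the samples are separate animals, so p-values measure only the spread between these samples.

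The clock is a feedback loop of transcription that runs with a period of about a day in nearly every cell. CLOCK or its paralog NPAS2 pairs with BMAL1 and switches on the PER and CRY genes, whose proteins then block their own activators. In a second loop, NR1D1 and NR1D2 (REV-ERB alpha and beta) repress BMAL1 and NPAS2, so that in most tissues NPAS2 transcripts peak while those of NR1D1 and DBP are low. The retina carries its own clock, which sets rhythms of dopamine, melatonin and rod and cone sensitivity. Because these transcripts change with the hour, their levels bear on whether the 2 groups were sampled at a similar phase.

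None of the 10 clock genes differed between PVR and normal retina past an adjusted p of 0.05 (edgeR, quasi-likelihood test, Benjamini-Hochberg adjustment over the 18697 genes tested). Of all genes tested, 1.70% passed that threshold, 1.09% higher and 0.615% lower in PVR, and 1.01% also had a log2 fold change beyond 1. Without adjustment, NR1D2 and NPAS2 had a p under 0.05, which is 2 of 10 beside 21.2% of all genes tested. DESeq2 and limma-voom also gave 0 of 10 after adjustment, with 1 and 3 of 10 at an unadjusted p under 0.05. The fitted changes were small. For 9 of the 10 genes the 95% interval of the log2 fold change lay between -1 and 1, so a change by a factor of 2 was outside it. The same held for 61.4% of all genes tested. The exception was PER3, the least abundant of the set. The median size of the log2 fold change, without its sign, was 0.17 over the 10 genes and 0.25 over all genes tested.

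**Figure D1:**
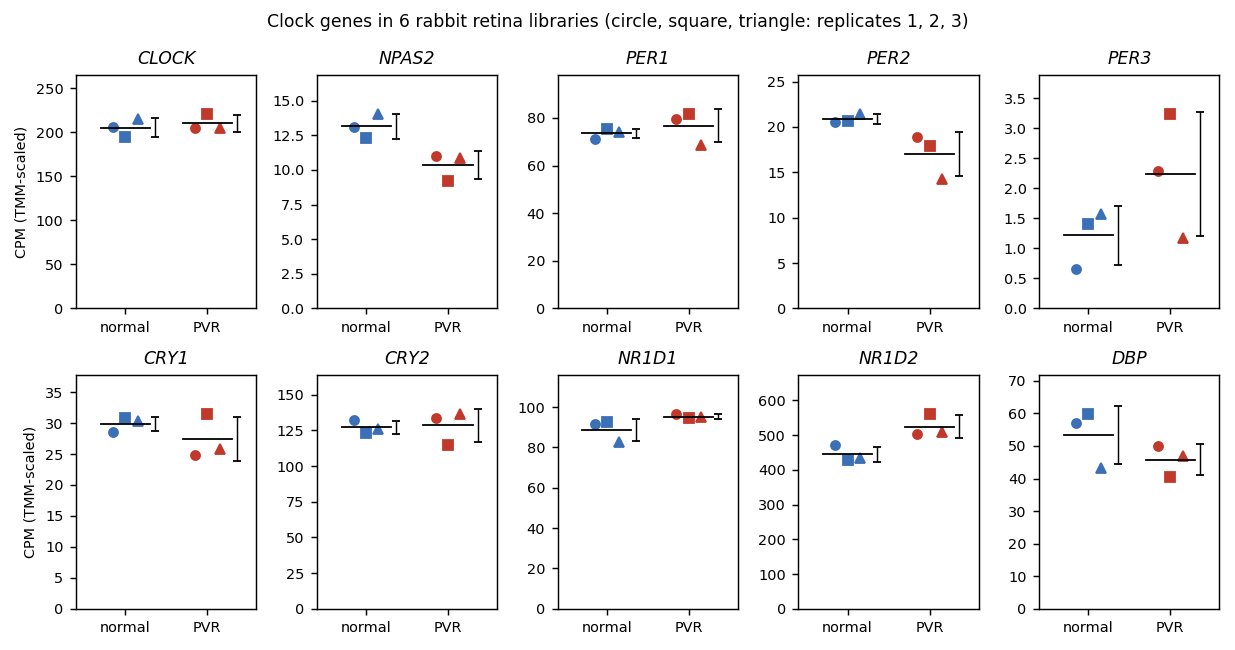
Level of each of the 10 clock genes in CPM (counts scaled to library size, linear axis from 0) in the 3 normal and 3 PVR libraries. Horizontal lines are group means and the bars beside them are ± 1 SD. The groups are apart for NPAS2, PER2, NR1D1 and NR1D2 and overlap for the other 6 genes.

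In 4 of the 10 genes every PVR library lay on one side of every normal library, beside 28.0% of all genes tested (13.4% higher and 14.6% lower in PVR). These were NR1D1 and NR1D2, higher in PVR, and NPAS2 and PER2, lower in PVR. The values below are CPM scaled by edgeR's TMM factors, which adjust for depth and composition, and the libraries held between 31904593 and 43035080 counted reads.

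CLOCK, the DNA-binding activator of the loop, had 206, 195 and 216 CPM in normal replicates 1 to 3 and 204, 221 and 204 CPM in PVR replicates 1 to 3. The groups overlapped. Its log2 fold change was 0.03 (95% interval -0.16 to 0.22, edgeR adjusted p = 0.835). NPAS2, which can take the place of CLOCK, had 13.1, 12.3 and 14.1 CPM in normal retina and 11.03, 9.19 and 10.9 CPM in PVR retina. Every PVR value was under every normal value. The log2 fold change of NPAS2 was -0.34 (95% interval -0.69 to -0.0020), and edgeR gave it an adjusted p of 0.234 (0.0490 before adjustment). BMAL1 (also named ARNTL) is the shared partner of both proteins and is not among the 10 genes. It had 114, 118 and 155 CPM in normal retina and 127, 133 and 116 CPM in PVR retina. Normal replicate 3 was the highest library, and the groups overlapped. For BMAL1 the log2 fold change was -0.04 (95% interval -0.34 to 0.26, edgeR adjusted p = 0.872), and it was 0.12 without normal replicate 3.

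PER1, a repressor that is also induced quickly by light, cyclic AMP and glucocorticoids, had 71.3, 75.3 and 74.0 CPM in normal retina and 79.7, 81.9 and 68.9 CPM in PVR retina. PVR replicate 3 was below all normal samples and the other PVR samples were above them. For PER1 the fitted log2 fold change was 0.06 (95% interval -0.14 to 0.26, edgeR adjusted p = 0.697). PER2, its paralog in the repressor complex, had 20.6, 20.6 and 21.5 CPM in normal retina and 18.9, 17.9 and 14.3 CPM in PVR retina. All PVR values were lower, and PVR replicate 3 lay furthest from the normal samples. The log2 fold change of PER2 was -0.29 (95% interval -0.63 to 0.04, edgeR unadjusted p = 0.0752, adjusted p = 0.281). PER3, a further member of the family, rested on few reads. It had 25, 55 and 63 counts in normal retina and 75, 109 and 51 counts in PVR retina. PVR replicate 3 fell among the normal samples, so the groups overlapped. PER3 had a log2 fold change of 0.87 with a 95% interval from -0.26 to 2.01 (edgeR adjusted p = 0.336). The interval holds both no change and a rise up to 4.02-fold. Its coefficient of variation (SD divided by mean) was 40.4% in normal and 46.3% in PVR retina, where counting alone would give 14.5% and 11.3%. The estimate was 0.51 without PVR replicate 2, 0.58 without normal replicate 1 and 1.18 without PVR replicate 3.

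CRY1, the stronger repressor of the cryptochrome pair, had 28.6, 30.8 and 30.3 CPM in normal retina and 24.9, 31.5 and 25.9 CPM in PVR retina. PVR replicate 2 was above all normal samples and the other PVR samples were below them. Its log2 fold change was -0.13 (95% interval -0.41 to 0.16, edgeR adjusted p = 0.575). CRY2 had 132, 123 and 126 CPM in normal retina and 134, 115 and 137 CPM in PVR retina. The PVR samples spanned the whole normal range. For CRY2 the log2 fold change was 0.02 (95% interval -0.19 to 0.22, edgeR adjusted p = 0.931), the closest to 0 of the 10 genes.

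NR1D2, a heme-binding repressor of BMAL1, had 470.4, 429 and 434 CPM in normal retina and 503, 561 and 509 CPM in PVR retina. All PVR values were higher, and it had the smallest p of the 10 genes. The log2 fold change of NR1D2 was 0.24 (95% interval 0.03 to 0.45), a 1.18-fold difference, and edgeR gave it an adjusted p of 0.194 (0.0313 before adjustment). NR1D1, its paralog, had 91.6, 92.4 and 82.5 CPM in normal retina and 96.7, 94.4 and 94.9 CPM in PVR retina. The gap between the groups was narrow, since the highest normal and the lowest PVR value were 92.4 and 94.4 CPM. Its log2 fold change was 0.10 (95% interval -0.07 to 0.27, edgeR adjusted p = 0.449). DBP, a D-box activator whose transcript is among the most strongly rhythmic clock outputs in many tissues, had 57.0, 59.9 and 43.4 CPM in normal retina and 50.02, 40.6 and 46.9 CPM in PVR retina. Normal replicate 3 was far below the other normal samples and lay within the PVR range. DBP had a log2 fold change of -0.22 (95% interval -0.55 to 0.11, edgeR adjusted p = 0.396). Leaving out normal replicate 3 gave -0.34, and leaving out normal replicate 2 gave -0.13.

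**Figure D2:**
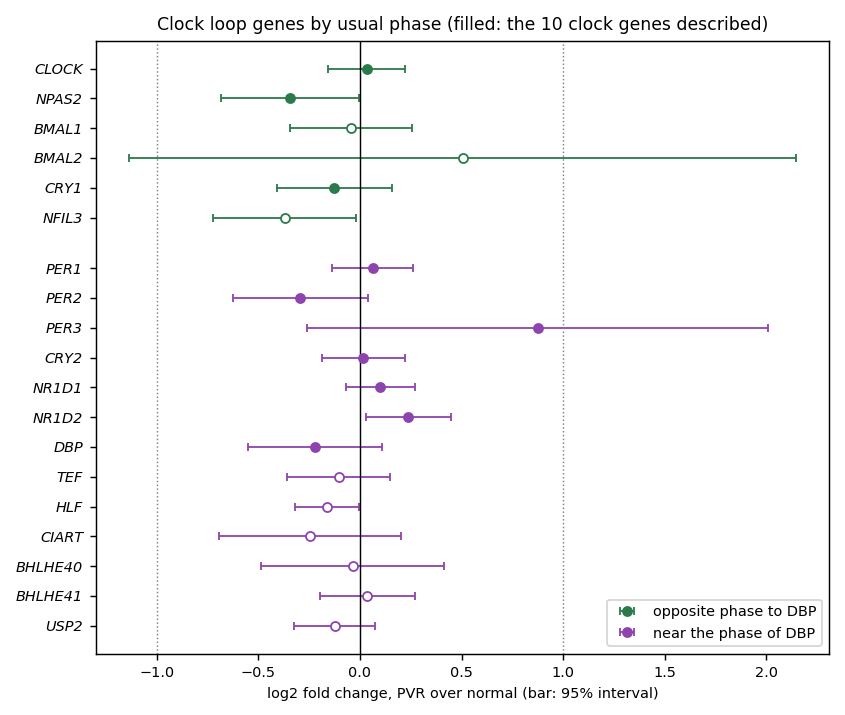
Log2 fold change of PVR over normal (linear axis) for 19 clock loop genes, with 95% intervals from edgeR as bars. Filled points are the 10 clock genes described, open points are other loop genes, colours give the usual phase, and the dotted lines mark -1 and 1. The estimates of NPAS2 and NR1D2 lie on opposite sides of 0, and those of PER2 and DBP lie below 0.

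Set out by the usual phase of these transcripts, each of 2 sets of loop genes held estimates above and below 0. The division is coarse, since opposite and delayed phases share a set, and a shift in phase was not tested. In the group near the phase of DBP (PER1, PER2, PER3, CRY2, NR1D1, NR1D2, DBP, TEF, HLF, CIART, BHLHE40, BHLHE41 and USP2), 6 of 13 estimates were above 0 and 7 below, and the median log2 fold change was -0.04. In the group with the opposite or a delayed phase (BMAL1, BMAL2, CLOCK, NPAS2, CRY1 and NFIL3), 2 of 6 were above 0 and 4 below, and the median was -0.08. Over all genes tested the median was -0.0088. No gene of either group passed an adjusted p of 0.05 in edgeR. Within the first group, NR1D2 and DBP had estimates of opposite sign.

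Ratios within a library do not depend on how the libraries are scaled to each other. The ratio of DBP to NPAS2, an output and an activator of opposite usual phase, was 12.1, 13.5 and 8.57 in normal retina and 12.6, 12.3 and 11.98 in PVR retina, in FPKM (fragments scaled to gene length and library size). The groups overlapped. A further 6 ratios were chosen after the values were known and are given without a test. The ratio of NPAS2 to CLOCK was 0.143, 0.142 and 0.147 in normal retina and 0.121, 0.0932 and 0.119 in the PVR samples. The ratio of PER1 to PER2 was 3.67, 3.86 and 3.64 in normal retina and 4.46, 4.83 and 5.10 in the PVR samples. The ratio of NR1D2 to NPAS2 was 30.3, 29.4 and 26.0 in normal retina and 38.4, 51.5 and 39.4 in the PVR samples. In these ratios the groups did not overlap, whereas they overlapped for NR1D2 to NR1D1, CRY2 to CRY1 and PER1 to PER3. For NR1D2 to NPAS2 this adds nothing to the single genes, since NR1D2 was higher and NPAS2 lower in every PVR library.

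**Figure D3:**
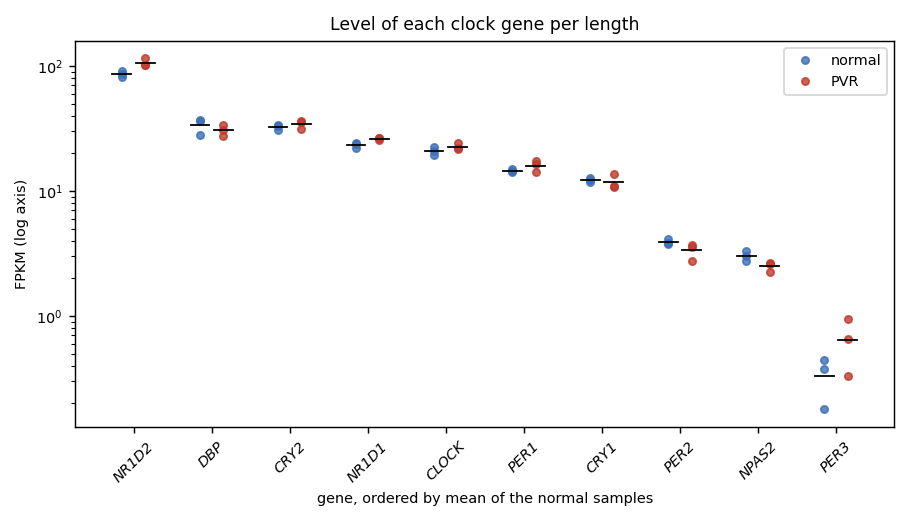
Level per length of the 10 clock genes in FPKM (log axis), ordered by the mean of the normal samples. Points are libraries and lines are group means. NR1D2 is the highest and PER3 the lowest gene in both groups.

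The levels of the 10 genes spanned more than 2 orders of magnitude on the FPKM scale. NR1D2 was the most abundant, with 86.0 ± 4.98 FPKM (SD, n = 3) in normal retina and 106 ± 7.84 FPKM (SD, n = 3) in the PVR samples. DBP followed with 34.0 ± 4.98 FPKM (SD, n = 3) in normal retina and 30.7 ± 2.99 FPKM (SD, n = 3) in the PVR samples. CRY2 had 32.5 ± 1.58 FPKM (SD, n = 3) in normal retina and 34.4 ± 2.75 FPKM (SD, n = 3) in the PVR samples. DBP and CRY2 overlapped in both groups, and their order changed between the groups. NR1D1 and CLOCK came next, with normal means of 23.3 and 21.0 FPKM. They overlapped in normal retina and were apart in the PVR samples. PER1 and CRY1 had normal means of 14.6 and 12.2 FPKM and did not overlap in either group. The lower end held PER2 with a normal mean of 3.91 FPKM, NPAS2 with 3.02 FPKM and PER3 with 0.332 FPKM. Each of these was apart from its neighbour in both groups. Within the paralog pairs, NR1D2 exceeded NR1D1, CRY2 exceeded CRY1 and CLOCK exceeded NPAS2 in all 6 libraries.

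**Figure D4:**
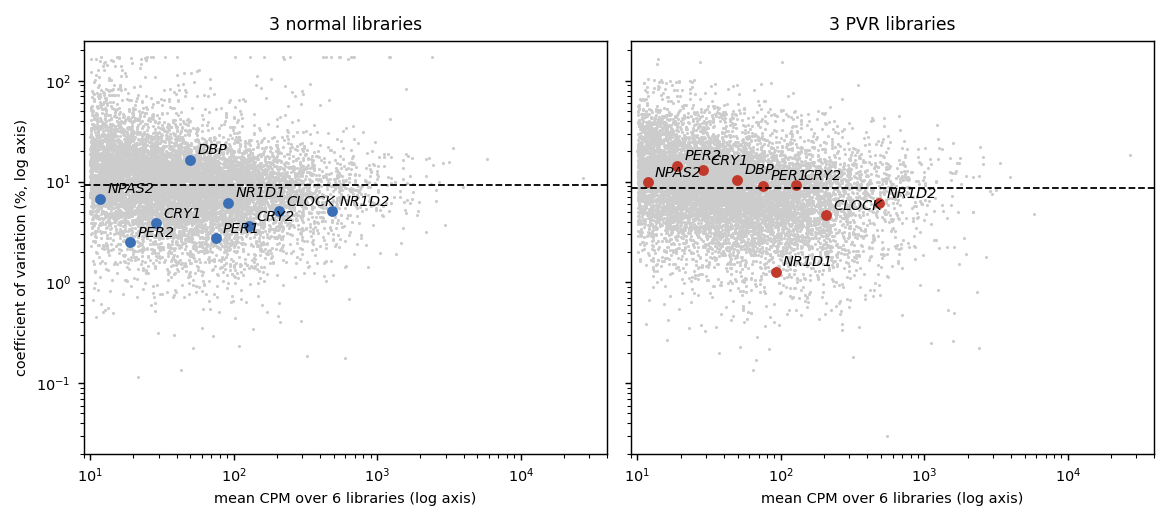
Coefficient of variation between the 3 libraries of a group (%, log axis) against mean CPM (log axis), for the 10107 genes with a mean of at least 10 CPM (grey). The 9 clock genes at that level are named, and dashed lines are the medians of all genes. In the normal samples DBP alone lies above the line, and in the PVR samples 3 of the 9 lie below it.

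Most of the clock genes varied less between normal samples than the typical gene. Over the 9 clock genes with a mean of at least 10 CPM, the median coefficient of variation was 5.05% in normal retina and 9.19% in the PVR samples. Over all 10107 genes at that level it was 9.26% and 8.73%. In the normal samples 8 of the 9 clock genes were below the median of all genes, and the exception was DBP with 16.5%. PER3 is under that level and varied by 40.4% there. PER2 varied by 2.50% in the normal samples, and counting alone would give 3.50% at its depth. In the PVR samples its variation was 14.4%, where counting would give 4.04%. NR1D1 went the other way, with 6.18% in normal retina and 1.28% in the PVR samples, where counting alone would give 1.70% and 1.69%. These figures rest on 3 libraries each, and the difference between the groups in spread was not tested.

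Beyond the 10 genes, 28 of 29 listed clock genes were matched and tested, and 0 passed an adjusted p of 0.05 in edgeR. At an unadjusted p under 0.05 there were 5 of 28 in edgeR, beside 21.2% of all genes tested, 4 in DESeq2 and 3 in limma-voom, and the last pair of tools also gave 0 after adjustment. In 7 of the 28 the groups did not overlap, with 6 lower and 1 higher in PVR, beside 28.0% of all genes tested. NFIL3, which competes with DBP at the D-box, had a log2 fold change of -0.37 (95% interval -0.72 to -0.02, edgeR adjusted p = 0.219). Among the kinases and ubiquitin ligases that act on PER proteins, CSNK1D, CSNK1E and BTRC had log2 fold changes between -0.29 and 0.04. CSNK1D and CSNK1E were lower in CPM in every PVR library, both by a narrow gap, and in FPKM the groups overlapped for both. CSNK1A1, also a casein kinase, was the single one of the 28 genes with every PVR library above every normal library, at a log2 fold change of 0.13. RORA and RORB, which oppose NR1D1 and NR1D2 at the same DNA element, had log2 fold changes of -0.02 and 0.12. The largest change of the 28, -1.51, was that of TIMELESS, which was lower in every PVR library but rested on 8 to 45 counts. All of these genes had an adjusted p above 0.05 in edgeR.

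**Figure D5:**
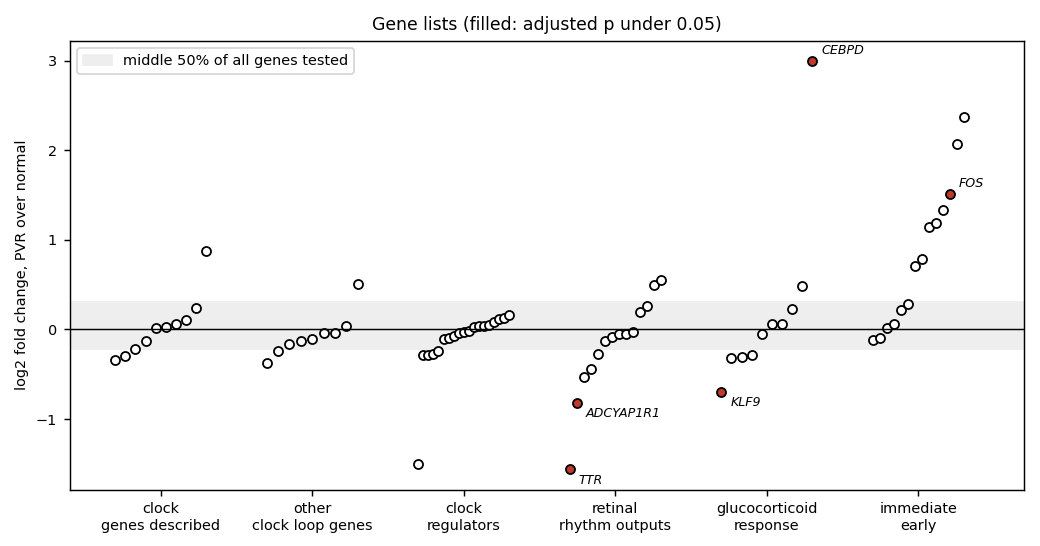
Log2 fold change of PVR over normal (linear axis) for the 10 clock genes and 5 further lists, with each gene as a point and PER1 shown with the clock genes. Filled points have an adjusted p under 0.05 in edgeR, and the grey band spans the quartiles of all genes tested. The clock lists hold no filled point, whereas TTR, ADCYAP1R1, KLF9, CEBPD and FOS are filled.

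Genes that act around the clock did include some past the threshold. Of 14 listed retinal rhythm genes tested, 2 fell and 0 rose in PVR, where 0.615% of all genes tested fell and 1.09% rose. The list was chosen with earlier results of these data known, so this count is not a test of it. ADCYAP1R1, the receptor of the light-signalling peptide PACAP, fell from 29.3 ± 3.77 CPM (SD, n = 3) to 16.6 ± 1.31 CPM (SD, n = 3), at an edgeR adjusted p of 0.0402. It was past the threshold in 8 of 15 other settings, and with a sample left out only without normal replicate 3 or PVR replicate 3. TTR, a thyroid hormone and retinol carrier that the pigment epithelium makes, fell from 56.4 ± 23.3 CPM (SD, n = 3) to 19.1 ± 3.25 CPM (SD, n = 3), at an edgeR adjusted p of 0.0478. TTR was past the threshold in 6 of 15 other settings, and with a sample left out only without normal replicate 3. The summed CPM of 5 pigment epithelium markers was 113 to 247 in normal retina and 76.5 to 86.7 in the PVR samples. RPE65 and TYRP1 made up most of the sum, TYR overlapped between the groups, and BEST1 was higher in every PVR library. Their part in the value of TTR was not tested. AANAT, the enzyme that times melatonin synthesis, had 13.7, 8.58 and 5.13 CPM in normal retina and 8.25, 9.16 and 9.02 CPM in PVR retina, and the groups overlapped.

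PER1 can also be read beside other genes that glucocorticoids or sudden stimuli induce. Of 11 glucocorticoid-responsive genes tested, PER1 included, 1 rose and 1 fell, to be read against the same shares of all genes. This list and that of immediate early genes were also chosen with earlier results known, so their counts are no test of them. CEBPD, a transcription factor of the acute-phase response, rose by 2.995 on the log2 scale (edgeR adjusted p = 0.000652). KLF9, which is both a glucocorticoid target and a clock output, had 44.8, 38.7 and 50.1 CPM in normal retina and 29.8, 26.2 and 26.7 CPM in PVR retina. Its log2 fold change was -0.69 (edgeR adjusted p = 0.0441), and it was past the threshold in 4 of 15 other settings. With single samples left out, the edgeR adjusted p of KLF9 was between 0.0563 and 0.206. FKBP5, a widely used glucocorticoid reporter, had a log2 fold change of -0.05 (edgeR adjusted p = 0.826). Of 14 immediate early genes tested, FOS rose, by 1.51 on the log2 scale (edgeR adjusted p = 0.0359), and 0 fell, beside 1.09% and 0.615% of all genes. FOS was past the threshold in 10 of 15 other settings, and in 1 of the 6 with a sample left out. The median log2 fold change of the 14 was 0.75, beside 0.06 for PER1 with an upper bound of 0.26.

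Profiles close to those of 2 clock genes were looked for among genes with a symbol and a mean log2 CPM of at least 3, by the root mean square difference of centred log2 CPM over the 6 libraries. The closest to NR1D2 were MCL1, NR2C1 and ORC3, with differences of 0.020, 0.021 and 0.027, beside a median of 0.221 over 9515 genes. The closest to DBP were DRAP1, ECSIT and RHOC, with differences of 0.042, 0.045 and 0.049, beside a median of 0.229 over 9516 genes. None of the 6 is on the clock lists. The closest of so many genes lie under the median by selection, and shared regulation was not tested.

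The groups differed in markers of other cells, and in bulk tissue fewer cells of a type and less RNA per cell cannot be told apart. Rod markers, which define retina, summed to 39950.2 to 47319 CPM in normal retina and 28542 to 39150.5 CPM in PVR retina, and 0 of 7 passed the threshold in edgeR. All 7 estimates were below 0. In 5 of the 7 every PVR library lay below every normal library, beside 14.6% of all genes tested. Estimates were below 0 for 5 of 5 cone, 5 of 5 ganglion, 4 of 5 bipolar and 3 of 4 amacrine markers. Of these lists, 0 genes passed the threshold in edgeR. Among 4 Müller glia markers, GLUL and RLBP1 fell, beside 0.615% of all genes tested. SLC1A3 and APOE had log2 fold changes of 0.08 and 0.25 and did not pass the threshold. Oligodendrocyte markers summed to 186 to 1060 CPM in the normal and 99.4 to 129.6 CPM in PVR retina, and endothelial markers to 8.77 to 35.5 and 2.32 to 3.15 CPM. MOBP, 1 of 4 in the first list, and VWF and CDH5, 2 of 4 in the second, fell, beside the same 0.615%. In PVR retina MOBP had 5 to 8 counts and CDH5 had 0 to 1, close to the floor. Of the other endothelial markers, CLDN5 was lower in every PVR library without passing the threshold. PECAM1 overlapped between the groups, with a log2 fold change of 0.23. Macrophage and microglia markers summed to 18.6 (normal replicate 3) to 47.7 CPM in the normal and 47.4 to 63.6 CPM in PVR retina, so the sums overlapped. All 5 of these estimates were above 0, and 0 of the 5 markers passed the threshold in edgeR. Normal replicate 2 stood apart with 22648 CPM of 6 lens genes, against 9.23 and 13.6 CPM in the other normal samples and 232 to 254 CPM in PVR retina. The part of these differences in the clock gene values was not tested. Without normal replicate 2, the log2 fold change was 0.22 for NR1D2, -0.38 for NPAS2 and -0.30 for PER2, and 0 of the 10 genes passed the threshold in edgeR, with 0 at an unadjusted p under 0.05. The time of sampling was not given for either group, so a difference in the hour of collection and an effect of PVR on the clock genes cannot be told apart.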

How the data were processed

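Polyadenylated RNA of 3 normal and 3 PVR retina samples was sequenced, and samples were grouped by their titles. The authors trimmed reads with fastp, aligned them with HISAT2 to OryCun2.0 and counted them per gene with HTSeq. The authors deposited raw counts without normalization, and FPKM values, which were the counts divided by gene length and by total count (largest relative difference in the implied length 4.24e-09). Neither the annotation release nor whether strand was used in counting is given in the sources used here, so reads from genes that overlap on opposite strands cannot be told apart. Column names gave the sample of every column.

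Tests on the counts used edgeR 4.0.16 in R 4.3.3. Its default filter left 18697 genes, TMM factors were computed, and a quasi-likelihood model with condition as the single term was fitted to all genes, with Benjamini-Hochberg adjustment over them. Intervals at 95% come from the fitted log2 fold change, its standard error and the test's degrees of freedom. They and the p-values do not cover differences beyond these samples. Alternatives were DESeq2 1.42.0, limma 3.58.1 (voom, and log2(FPKM + 1) or log2(FPKM + 0.1)), edgeR with upper-quartile or RLE factors, without the filter, with a minimum of 10 counts in all samples, with a replicate block, and with single samples left out. The tests were tried on simulated counts with known changes. Tables and figures were made with Python 3.11.15, pandas 2.3.3 and matplotlib 3.10.9.

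The clock genes and all gene lists were chosen with earlier results of these data known. Named genes are the 10 clock genes, BMAL1, other listed genes with an adjusted p under 0.05, the 3 closest profiles to DBP and to the clock gene with the smallest p, and genes given as examples of a role after their values were seen (NFIL3, CSNK1A1, CSNK1D, CSNK1E, CSNK2B, BTRC, TIMELESS, WEE1, GNAZ, NOCT, SLC1A3, APOE, RPE65, TYR, TYRP1, BEST1, CLDN5, PECAM1, RORA, RORB, AANAT and FKBP5). Symbols without a row of their own were matched through RefSeq's annotation of mOryCun1.1, used for names only. The value of DBP rests on such a match, and whether the identifiers of the tables come from an annotation of OryCun2.0 was not checked. FBXL21, ASMT, TH, DRD4, MT2A, FOSB and SIK1 were not matched and are not analysed here, and some further clock genes are not reported here.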

Additional observations from a re-analysis of the deposited data

How the results depend on the processing

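The count of clock genes past an adjusted p of 0.05 was 0 of 10 in all 15 alternatives, as was that of the other clock genes, and the smallest adjusted p of any of the 10 genes was 0.118 (NR1D2 with DESeq2). The log2 fold changes kept their sign in all alternatives for 8 of the 10 genes. With single samples left out, CLOCK ranged from -0.0063 to 0.0754, CRY2 from -0.0327 to 0.0905 and BMAL1 from -0.1195 to 0.1192, and BMAL1 was 0.0395 on the log2(FPKM + 1) and 0.0407 on the log2(FPKM + 0.1) scale. The number of genes past the adjusted p over all genes tested was 318. It was 1755 with DESeq2 and between 22 and 650 with single samples left out. Past the fold threshold of 1 as well, it was 188 in the test reported, 807 with DESeq2, 87 on the log2(FPKM + 1) scale and between 22 and 436 with single samples left out. The causes were not tested. The labels do not say whether the replicate numbers pair the samples. Same-numbered samples had correlations of deviations of -0.013, 0.073 and 0.042, and not every sample correlated best with its own number. With 3 samples a group these values cannot decide whether the samples are paired. With the replicate block, 92 genes passed the adjusted p, 82 of them the fold threshold as well, and 0 of the 10 clock genes. The log2 difference of the DBP to NPAS2 ratio was 0.13, and between -0.06 and 0.27 with single samples left out. PER3 had the fewest reads of the 10 genes, 25 to 109 counts, and also varied more between samples than counting alone would give. With 3 samples a group, intervals cover the spread between these samples only.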

Other observations

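Of the 14 listed retinal rhythm genes tested, 1 was higher and 4 were lower in every PVR library, beside 13.4% and 14.6% of all genes tested. Those that did not pass an adjusted p of 0.05 were WEE1, GNAZ and NOCT, given here as values chosen after they were seen. WEE1, a cell cycle kinase under E-box control in other tissues, had 15.03 ± 1.61 CPM (SD, n = 3) in the normal and 22.0 ± 3.33 CPM (SD, n = 3) in the PVR samples (log2 fold change 0.55, edgeR adjusted p = 0.119). GNAZ, a G protein subunit, had 191 ± 10.7 CPM (SD, n = 3) in the normal and 140.0 ± 15.2 CPM (SD, n = 3) in the PVR samples (log2 fold change -0.45, edgeR adjusted p = 0.0744). NOCT, a rhythmic phosphatase, had 25.2 ± 2.77 CPM (SD, n = 3) in the normal and 20.8 ± 0.435 CPM (SD, n = 3) in the PVR samples (log2 fold change -0.28, edgeR adjusted p = 0.237). CSNK2B, the regulatory subunit of casein kinase 2, is instead among the 28 other clock genes. It had the smallest p of them, with a log2 fold change of -0.28 (edgeR unadjusted p = 0.00908, adjusted p = 0.118).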
